A study of Homo sapiens with 18 samples.

Results

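The genes that encode the proteins of the cytosolic ribosome were examined in EpCAM+ hepatocellular carcinoma (HCC) cells exposed to disulfiram (DSF) or 5-fluorouracil (5-FU). They were taken as every gene whose symbol is RPL or RPS followed by a number with an optional A, L, X or Y ending, together with RPLP0, RPLP1, RPLP2 and RPSA, leaving out the RPS6K kinases and pseudogenes. This rule gave 82 genes of the 19720 named on the array, measured by 155 array probes, and all 82 passed the filter on low signal. They comprise 32 small subunit genes, 47 large subunit genes and the 3 genes of the ribosomal stalk.

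The cells came from Huh1 and Huh7, established human HCC lines, and were sorted for EpCAM, a surface protein of tumor-initiating HCC cells. They had 48 hours of 0.1 µM DSF, 1 µM 5-FU or neither drug. DSF is an inhibitor of aldehyde dehydrogenase that binds copper, and 5-FU is an antimetabolite that blocks thymidylate synthase and is also built into RNA. Each line gave 3 control, 3 DSF and 3 5-FU samples, for 18 one-color arrays in 6 groups. The study's methods list copper chloride beside DSF and what the control cells received is not given in the sources used here, so DSF and copper cannot be told apart. The sources used here do not settle whether the sort came before or after the drug, and each line stands for 1 tumor.

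A ribosome holds about equal numbers of copies of its proteins, and the transcripts that encode them are among the most abundant of a growing cell. Most of these transcripts begin with a C followed by a run of pyrimidines, the 5′ terminal oligopyrimidine (TOP) motif, through which the mTOR and LARP1 pathway sets how much they are translated. When ribosome assembly is disturbed, several free ribosomal proteins, RPL5 and RPL11 foremost, bind MDM2 and so stabilise p53. 5-FU is known to disturb the processing of ribosomal RNA.

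RefSeq start sites illustrate the motif. The windows shown run from 15 bases before the annotated start to 15 bases from it on, in GRCh38.p14, 5′ to 3′ on the strand of the gene, and the capitals mark the pyrimidine run that covers the start base where there is one. RPL3, RPL10A, RPL12, RPL22 and RPL34 are shown because they were among the genes that fell most with 5-FU, RPS27 and RPS27L as a pair of paralogs that moved apart, and RPL27A because it stood outside the group. They lie at chr22:39319609-39319638 (minus strand), chr6:35468386-35468415 (plus), chr9:127451392-127451421 (minus), chr1:6199581-6199610 (minus), chr4:108620561-108620590 (plus), chr1:153990747-153990776 (plus), chr15:63157463-63157492 (minus) and chr11:8682777-8682806 (plus) in the order of the lines.
RPL3: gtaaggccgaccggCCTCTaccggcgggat
RPL10A: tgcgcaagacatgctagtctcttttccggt
RPL12: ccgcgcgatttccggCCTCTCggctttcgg
RPL22: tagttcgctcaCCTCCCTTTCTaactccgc
RPL34: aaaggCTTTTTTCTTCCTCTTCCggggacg
RPS27: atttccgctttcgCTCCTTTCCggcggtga
RPS27L: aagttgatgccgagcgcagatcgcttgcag
RPL27A: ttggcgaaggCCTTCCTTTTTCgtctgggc

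Of the 82 genes, 65 matched a RefSeq promoter entry. A C at the start base followed by at least 4 pyrimidines was present in 42 of the 65 (64.6%), against 1104 of all 27305 promoters in the table (4.04%). RPS27 carries this pattern and its paralog RPS27L does not, RPL12, RPL22, RPL34 and RPL27A carry it, and RPL3 and RPL10A do not at their annotated start. The letters GGAAGT, which ETS family factors bind, stood on either strand of the 300-base promoter in 28 of the 65 genes (43.1%) and in 23.2% of all promoters, and AAGATGG, a YY1 motif, in 12.3% and 6.06%. The letters TATAAA stood in 9.23% and 12%. A match of letters is a description and not a binding site, and a start that RefSeq places a few bases away moves a gene in or out of the first count.

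The liver cancer markers checked (8 of 8 genes) were well above background on all 18 arrays. Of the defining markers of fibroblasts and macrophages, 0 of 3 and 0 of 2 were so on all arrays, and of blood cells and endothelium 2 of 3 each. Per array, 59.35% to 70.57% of probes were well above background (median 64.21%), and arrays of a group correlated at 0.9887 to 0.9973. Huh1 arrays lay on slide 1 except DSF array 3, which shared slide 2 with most Huh7 arrays, and Huh7 DSF arrays 2 and 3 lay alone on slide 3, in another scan. Values are log2 signals minus the array's 75th percentile, and the 82 genes are each read from their brightest probe. All 82 were well above background on every array, 79 of them lay in the brightest 5% of the probes tested, and 0 spots were saturated. Changes were tested with limma over 29760 probes, and a call is a p below 0.05 after adjustment by Benjamini and Hochberg.

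With 5-FU, ribosomal protein transcripts fell together in both lines on this scale, while DSF moved few of them. The fall was a median log2 change of -0.48 in Huh1 and -0.75 in Huh7, 1.4-fold and 1.68-fold lower. In Huh1 78 of the 82 genes fell and 0 rose, where 26% of all probes tested were called lower and 22.3% higher. In Huh7 78 fell and 2 rose, against 29.8% and 27.4% of all probes. The median change of all probes tested was -0.03 in Huh1 and -0.05 in Huh7. Of the 82 genes, 77 fell in both lines, and the share of all probes tested that did so was not determined. Every 5-FU array lay below every control array for 80 genes in Huh1 and 79 in Huh7. The share of all probes tested that were so separated was not determined, so these counts do not set the genes apart. In such bulk samples a smaller share of cells with a transcript and less of it per cell cannot be told apart.

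**Figure D1:**
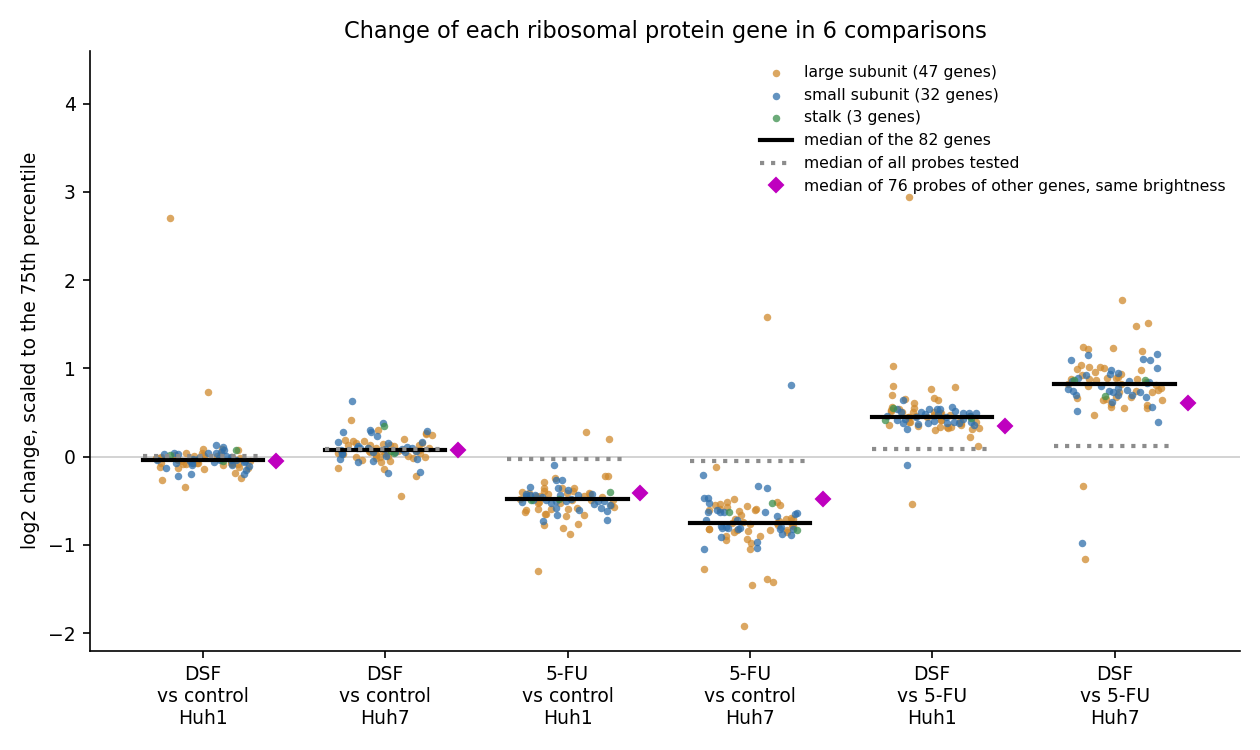
Log2 change of each of the 82 ribosomal protein genes in 6 comparisons (points, coloured by subunit), with the median of the 82 genes (black line), the median of all probes tested (dotted line) and the median of 76 probes of other genes in the same range of brightness (diamond). With 5-FU the black line stands at -0.48 in Huh1 and -0.75 in Huh7 and the diamond at -0.41 and -0.48, while after DSF both stay within 0.1 of 0.

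Bright probes as a class moved the same way. The 76 probes of other genes whose mean signal lay within the quartiles of the ribosomal protein genes had a median change of -0.41 in Huh1 and -0.48 in Huh7 with 5-FU, and 54 and 66 of them fell. Among them 43 probes named for genes that are neither ribosomal nor on the list of TOP transcripts had medians of -0.39 and -0.41. The medians of the ribosomal protein genes and of these probes lay closer together in Huh1 than in Huh7, and the part of brightness in the fall was not tested. The 7 spike-in RNAs with a log2 signal above 8 had mean log2 signals from 8.28 to 18.44. The highest log2 signal of a ribosomal protein gene was 19.55. With 5-FU these spike-in RNAs fell by 0.77 to 0.85 in Huh1 and 0.94 to 1.07 in Huh7 relative to the 75th percentile.

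The choice of scale sets the sign of the median change of these genes. When arrays were scaled to the spike-in RNAs, which follow the labelled RNA rather than the probes, the median of all probes tested rose by 0.80 in Huh1 and 0.94 in Huh7 with 5-FU, and that of the ribosomal protein genes stood at 0.34 and 0.23, with 56 and 34 genes called higher. This scaling shifts all probes of an array alike, so the gap between the genes and all probes, -0.45 and -0.70, is the same by construction. Quantile normalization, which gives all arrays the same distribution of signals, left medians of -0.08 and -0.23, with 27 and 50 genes called lower. The falls with 5-FU described here are thus falls relative to the bulk of transcripts. With spike-in scaling 1 gene in Huh1 and 4 in Huh7 were still called lower. A change in the amount of these transcripts per cell was not measured.

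**Figure D2:**
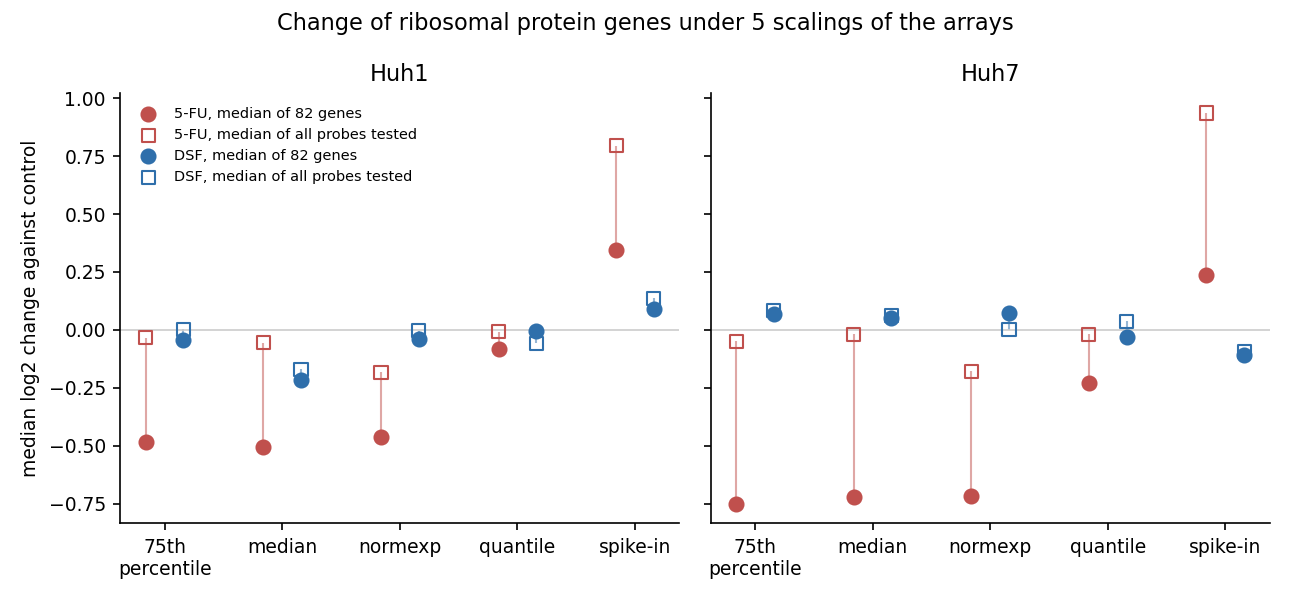
Median log2 change against control of the 82 ribosomal protein genes (filled circles) and of all probes tested (open squares) under 5 ways of scaling the arrays, for 5-FU (red) and DSF (blue) in Huh1 (left) and Huh7 (right). For 5-FU the circle lies below the square by 0.45 and 0.70 with the 75th percentile, a gap that median and spike-in scaling cannot alter, and by 0.07 and 0.21 with quantile normalization, and under spike-in scaling both lie above 0.

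The separate arrays gave the same picture as the group means. Against the mean of the control arrays of the line, the median of the 82 genes stood at -0.43, -0.53 and -0.48 on the Huh1 5-FU arrays and at -0.72, -0.70 and -0.81 on the Huh7 5-FU arrays. The control arrays lay between -0.04 and 0.04. Between 79 and 81 of the 82 genes lay below their control mean on each 5-FU array. The same share over all probes tested was not determined. The 5-FU and control arrays of a line shared a slide, so that slide and drug were not mixed in these comparisons.

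**Figure D3:**
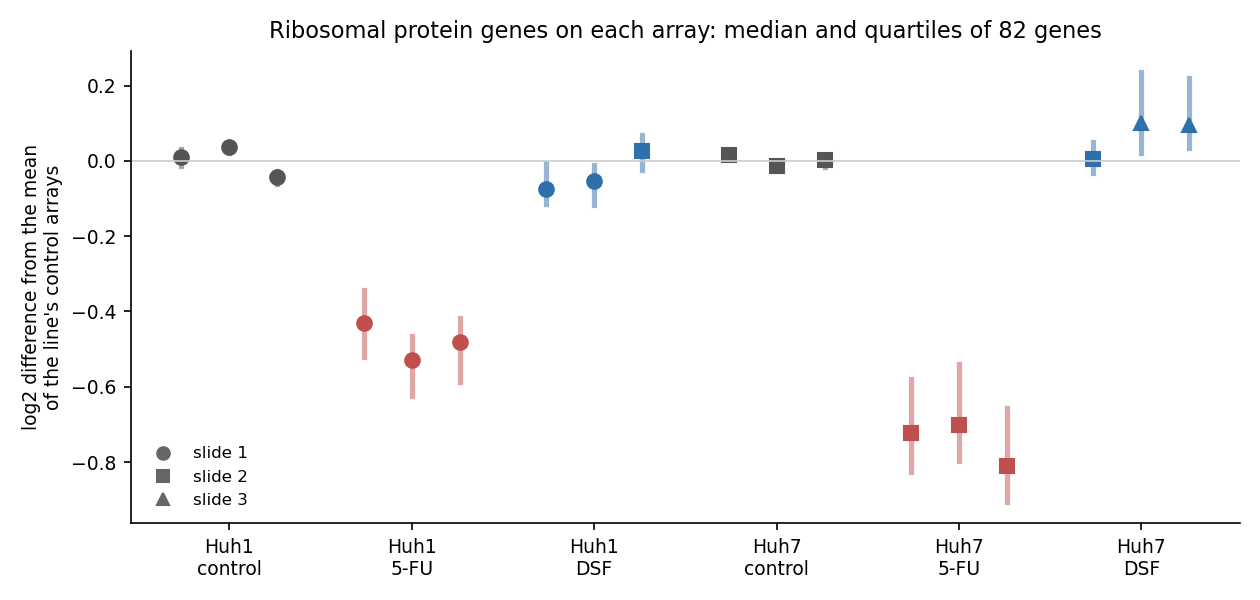
Median (symbol) and quartiles (bar) of the 82 ribosomal protein genes on each of the 18 arrays, as the log2 difference from the mean of the control arrays of the same line, with the slide shown by the symbol. The 6 arrays of 5-FU cells sit between -0.43 and -0.81, and the DSF arrays between -0.07 and 0.10, with the 2 highest on slide 3.

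Both subunits took part to a like extent. The small subunit genes had a median of -0.49 in Huh1 and -0.72 in Huh7 (31 and 30 of 32 fell), and the large subunit genes -0.48 and -0.75 (44 and 45 of 47 fell). The stalk proteins recruit elongation factors to the ribosome, and all 3 of their genes fell in both lines. RPLP0, the base of the stalk, gave -0.40 ± 0.06 (SE, n = 3 against 3) in Huh1 and -0.63 in Huh7, RPLP1 -0.49 and -0.52, and RPLP2 -0.48 and -0.83.

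RPL3, which lies near the peptidyl transferase center, fell most in both lines. Its normalized log2 signal was 7.67, 7.69 and 7.63 in Huh1 control cells and 6.46, 6.26 and 6.38 with 5-FU. In Huh7 it went from 8.06, 8.06 and 8.03 to 6.23, 6.16 and 6.02. The groups were well apart, and the changes were -1.29 ± 0.08 (2.45-fold lower, adjusted p = 3.64e-08) and -1.92 ± 0.08 (3.78-fold lower, adjusted p = 2.09e-10). RPL3 stayed lower on every scale, at -0.47 and -0.93 with spike-in scaling. A second probe of RPL3 gave -1.21 and -1.92.

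The next largest falls were also those of large subunit genes. In Huh1 they were RPL10A, near the L1 stalk (-0.88), RPL34 (-0.80), RPL37 (-0.78) and RPL12, at the base of the stalk (-0.77). In Huh7 they included RPL22 (-1.42), RPL12 (-1.38) and RPL10A (-1.28). RPL3, RPL10A and RPL12 are known for transcripts that are spliced to forms cleared by nonsense-mediated decay, and the probes do not tell spliced forms apart. RPL22 stood at 5.08, 5.03 and 5.08 in Huh7 control cells and at 3.71, 3.68 and 3.54 with 5-FU. In Huh1 the same gene went from 5.27, 5.47 and 5.45 to 4.78, 4.73 and 4.72. In Huh7 8 genes fell by 2-fold or more, and in Huh1 only RPL3 did.

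The fall was deeper in Huh7. The change was lower in Huh7 than in Huh1 for 75 of the 82 genes, with a median difference of -0.24. The difference passed the test in the negative direction for 41 genes, where 17.9% of all probes tested did, and in the positive direction for 3, where 18.8% did. Among the lowest p values were RPL22 (a difference of -0.76, adjusted p = 5.11e-05), RPL12 (-0.62) and RPS9, a small subunit protein (-0.48). The 3 with a positive difference were RPS27L, RPL27A and RPS26. Across the 82 genes the changes in the 2 lines correlated at 0.77 (Pearson) and 0.62 (Spearman), given as a description since genes share arrays and brightness. Without RPL27A and RPL3L, the Pearson value was 0.71 over 80 genes. With spike-in scaling the median difference was -0.09, and only 1 gene was called with a larger fall in Huh7.

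**Figure D4:**
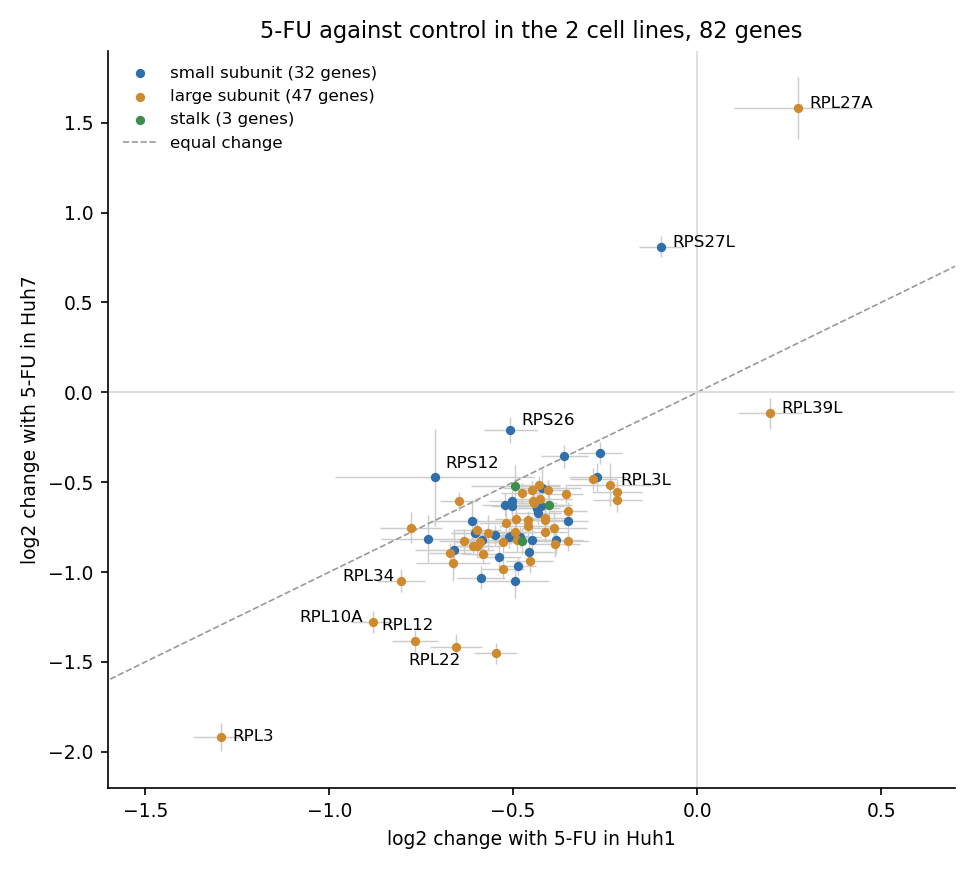
Log2 change with 5-FU in Huh1 (x axis) and Huh7 (y axis) for each of the 82 ribosomal protein genes, with standard errors as grey bars and the line of equal change dashed. 75 genes lie below the dashed line, RPL3 stands lowest at -1.29 and -1.92, and RPS27L and RPL27A stand above 0 in Huh7.

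RPS27L, a paralog of RPS27 that is a known p53 target and binds MDM2, went against the group in Huh7. It stood at 5.89, 5.85 and 5.91 in Huh7 control cells and at 6.68, 6.67 and 6.74 with 5-FU, all above the controls. The change was 0.81 ± 0.06 (1.75-fold higher, adjusted p = 5.32e-08). In Huh1 it went from 5.52, 5.47 and 5.43 to 5.32, 5.38 and 5.42, a change of -0.10 that did not pass the test (adjusted p = 0.2). The difference between the lines was 0.91 ± 0.09 (adjusted p = 2.89e-06). RPS27 itself, a zinc finger protein of the small subunit, fell by 0.44 in Huh1 and 0.63 in Huh7. RPS27L rose in Huh7 on every scale, by 1.26 with quantile normalization and 1.80 with spike-in scaling.

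Other members that bind MDM2 fell with the rest. Of the 11 genes listed for this, 10 fell in each line, with medians of -0.46 and -0.71, and the exception was RPS27L. RPL5 gave -0.46 in Huh1 and -0.71 in Huh7, RPL11 -0.41 and -0.70, and RPL23 -0.63 and -0.83. Of the 19 p53 targets measured, 13 rose and 3 fell with 5-FU in Huh1, where 22.3% and 26% of all probes did, and 8 rose and 6 fell in Huh7, where the shares were 27.4% and 29.8%. CDKN1A, the p21 cell cycle inhibitor, rose by 1.03 in Huh1 and 1.27 in Huh7, and MDM2 by 0.55 in Huh1 and 0.94 in Huh7. Other targets went the other way in Huh7. BBC3 rose by 1.45 in Huh1 and fell by 1.20 in Huh7, where FDXR fell by 0.76.

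RPL27A, read from 1 probe, rose in Huh7 with 5-FU. The probe gave -4.92, -4.95 and -4.94 in Huh7 control cells and -3.12, -3.38 and -3.57 with 5-FU, a change of 1.58 ± 0.17 (2.99-fold higher, adjusted p = 2.48e-06). With normexp background correction the change was 0.55. The probe was well above background on every array, yet its values lie below the 75th percentile of the array, as otherwise only those of RPL3L do among the 82 genes. In Huh1 its change was 0.28 (adjusted p = 0.212), and the difference between the lines was 1.31 ± 0.25 (adjusted p = 0.000876). Which part of the transcript this probe reads was not determined.

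Some paralogs of a common ribosomal protein moved apart from their partner and others moved with it. RPL39L, a form of RPL39 best known from the testis, gave 0.20 in Huh1 and -0.12 in Huh7 with 5-FU, neither of which passed the test, while RPL39 fell by 0.41 and 0.71. RPL3L, a form of RPL3 made in heart and skeletal muscle, gave -0.24 in Huh1 (adjusted p = 0.119) and fell by 0.51 in Huh7. RPL36AL fell by 0.43 and 0.52, much like RPL36A at -0.52 and -0.73. RPL10L fell by 0.35 and 0.83 beside RPL10 at -0.41 and -0.78, and the near identity of these 2 genes leaves their signals inseparable here. RPL22L1, whose name falls outside the rule, rose by 0.50 ± 0.10 in Huh1 (adjusted p = 0.00107) and fell by 1.74 ± 0.10 in Huh7 (adjusted p = 6.03e-09), while RPL22 fell in both. Its values were 6.18, 5.98 and 5.99 in Huh1 controls and 6.33, 6.67 and 6.67 with 5-FU, and in Huh7 7.15, 7.13 and 7.12 against 5.60, 5.36 and 5.22.

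**Figure D5:**
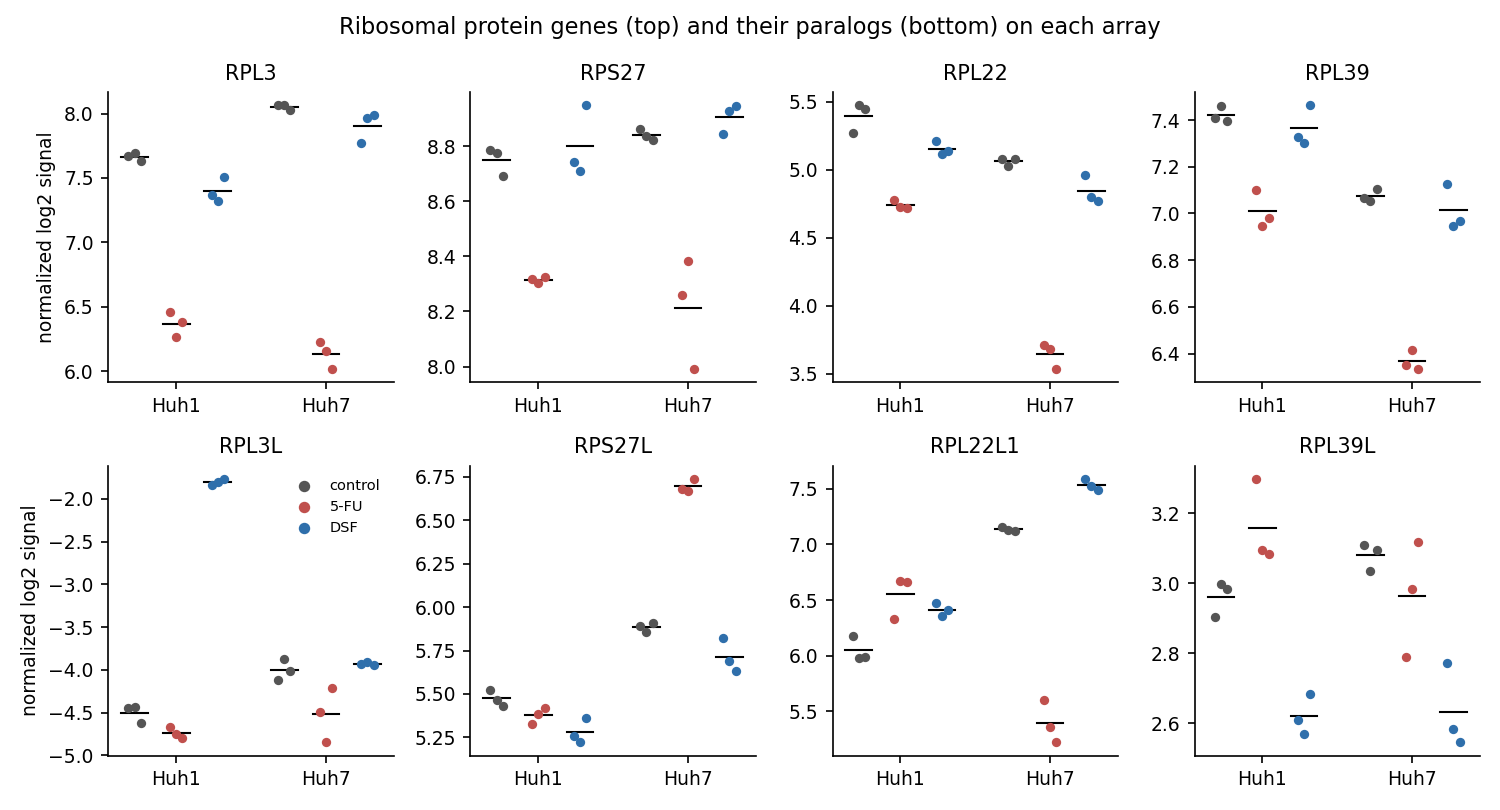
Normalized log2 signal on each of the 18 arrays for RPL3, RPS27, RPL22 and RPL39 (top) and for their paralogs RPL3L, RPS27L, RPL22L1 and RPL39L (bottom), for control (grey), 5-FU (red) and DSF (blue) cells, with group means as black lines and a separate y axis for each gene. RPL3L is high only in the 3 Huh1 DSF arrays (-1.84 to -1.76), and RPS27L is highest in the Huh7 5-FU arrays (6.67 to 6.74).

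Of the 39 genes with several probes, few gave opposite calls. With 5-FU these were RPL28, RPS23 and RPS26 in Huh1 and RPL28 and RPS26 in Huh7. The brightest RPL28 probe fell by 0.39 and 0.75, while a probe assigned in the files to another transcript of the gene rose by 1.65 and 0.98, and also rose with DSF, by 2.01 and 1.17. A dimmer RPS26 probe rose by 0.29 in Huh1 and 1.60 in Huh7 beside a fall of 0.51 and 0.21 at the brightest one. RPS26 has many processed pseudogenes, and the probes' specificity was not tested. Counting all 155 probes, 142 fell in Huh1 and 145 in Huh7, with medians of -0.46 and -0.75.

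Transcripts that share the TOP motif but encode other proteins fell as well. The 16 measured include elongation factors, subunits of initiation factor 3 and nucleophosmin. All 16 fell with 5-FU in each line, where 26% and 29.8% of all probes did, with medians of -0.36 and -0.84. The 43 named probes that are neither ribosomal nor TOP, in the brightness range of the ribosomal protein genes, had medians of -0.39 and -0.41. The largest falls were those of HNRNPA1 (-1.01 and -1.45) and EIF3F (-0.88 and -1.33). RACK1, a ribosomal protein named otherwise, fell by 0.48 and 1.07. FAU, which encodes RPS30 fused to another small protein, gave -0.11 and -0.05, neither of which passed the test. Among the 65 genes with a promoter entry, those with the C and pyrimidine start had a median of -0.51 in Huh1 and -0.80 in Huh7, and the other 23 had -0.44 and -0.70. Of 75 ribosome biogenesis factors, which assemble the subunits, 13 (17.3%) rose and 29 (38.7%) fell in Huh1, where 22.3% and 26% of all probes did. In Huh7 23 (30.7%) rose and 22 (29.3%) fell, near the 27.4% and 29.8% of all probes. Of 19 RNA polymerase I genes 8 (42.1%) rose and 4 (21.1%) fell in each line.

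Ribosomal protein transcripts stayed near their control level with DSF on the 75th percentile scale. The median change was -0.04 in Huh1 and 0.07 in Huh7, and that of all probes was 0.00 and 0.08. In Huh1 2 genes rose and 5 fell, where 24.0% of all probes tested were called higher and 20.4% lower. In Huh7 13 rose and 4 fell, where the shares were 27.4% and 19.4%. The change stayed within 0.2 of 0 for 76 of the 82 genes in Huh1 and 67 in Huh7. Scaled to the median of all probes instead, the median in Huh1 was -0.22 with 50 genes called lower, and that of all probes was -0.17. A missing call does not show that a gene was level.

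The rises in Huh7 were larger on slide 3 than on slide 2. On the Huh7 DSF array of slide 2, which also held the controls, the median of the 82 genes was 0.00, and on the 2 arrays of slide 3 it was 0.10 and 0.10. The 13 genes that rose had a median of 0.06 on slide 2 and 0.36 on slide 3. All 13 lay above every control on both arrays of slide 3, and 8 of them did on slide 2. The call that picked these 13 genes used both arrays of slide 3, so their larger rise there follows in part from the choice. How many of all probes tested lay so was not determined, and these counts do not set the genes apart. RPLP1 gave 8.04 on slide 2 and 8.64 and 8.61 on slide 3, with controls from 8.02 to 8.11. RPS12 had the highest change of the 82 genes in Huh7, 0.63 ± 0.27, with 6.99 on slide 2 and 8.17 and 8.19 on slide 3, and it did not pass the limma test (adjusted p = 0.0713). With slide as a block 0 genes were called higher and 1 lower in Huh7, and the rises of RPLP1, RPS26, RPL14 and RPS23 (0.29 to 0.35) no longer passed. That fit leaves 1 DSF array in Huh7, the one on slide 2, so its lost calls do not show that the rises depend on the slide. Slide 3 held no other group, and on its arrays slide and drug cannot be told apart. The RPS23 rise in Huh7 also rests on its brightest probe. With the mean of the gene's probes the change was 0.0023 (limma, adjusted p = 0.978).

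RPL3L had the largest change of the 82 genes with DSF, and in Huh1 alone. It stood at -4.44, -4.44 and -4.62 in Huh1 control cells and at -1.84, -1.81 and -1.76 with DSF, far above every other array. The change was 2.70 ± 0.12 (6.5-fold higher, adjusted p = 7.95e-10). In Huh7 the values were -4.12, -3.88 and -4.01 against -3.93, -3.91 and -3.95, a change of 0.07 (adjusted p = 0.636). The difference between the lines was -2.63 ± 0.17 (adjusted p = 1.05e-07). The rise in Huh1 was 2.68 with slide as a block.

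The remaining calls with DSF in Huh1 were below 0.4 on the log2 scale in size except for RPL27A, which rose by 0.74 ± 0.17 (adjusted p = 0.00314). RPL39L fell by 0.34 ± 0.09 in Huh1 (adjusted p = 0.00576), and every DSF array lay below every control array. In Huh7 the fall was 0.45 ± 0.09 (adjusted p = 0.000888), again without overlap. RPL22 fell by 0.24 and 0.22, and RPS27L by 0.19 and 0.17. RPL3 fell by 0.26 in Huh1, and RPS3 by 0.19 in Huh7. In Huh7 these 4 falls did not pass with slide as a block, where RPL39L gave -0.31 (adjusted p = 0.0689) and RPS3 -0.14 (adjusted p = 0.303). RPL23 was the 1 gene with opposite calls, -0.18 in Huh1 and 0.18 in Huh7. With slide as a block the Huh7 value was 0.06 (adjusted p = 0.626), and the Huh1 call was lost with the replicate block (adjusted p = 0.0806) and with no filter (adjusted p = 0.0742). Of the tests of the line difference, 7 genes passed in the positive direction and 1 in the negative, where 21.2% and 19.3% of all probes did.

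Biogenesis factors rose with DSF in Huh7. There 66 of 75 rose and 0 fell, where 27.4% and 19.4% of all probes did, with a median of 0.49, led by TSR1 (1.13), a factor of small subunit maturation. With slide as a block, which leaves the DSF array of slide 2, 62 rose and 0 fell with a median of 0.58, where 17.6% and 11% of all probes did. In Huh1 23 (30.7%) rose and 12 (16%) fell, where 24.0% and 20.4% of all probes did, with a median of 0.07. The other TOP transcripts resembled the ribosomal protein genes, with medians of 0.01 and 0.10.

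Set directly against each other, DSF cells had higher ribosomal protein transcripts than 5-FU cells, except with spike-in scaling. The median difference was 0.45 in Huh1 and 0.82 in Huh7. In Huh1 78 genes were higher and 1 lower, where 28.7% of probes were called higher and 20.6% lower. In Huh7 79 were higher and 3 lower, where the shares were 35.6% and 25%. Among the largest were RPL3L (2.94) and RPL3 (1.03) in Huh1 and RPL3 (1.77) and RPL12 (1.48) in Huh7. RPL39L was lower in both lines (-0.54 and -0.33), in Huh7 not with slide as a block (-0.19, adjusted p = 0.211), and RPS27L (-0.98) and RPL27A (-1.16) were lower in Huh7. Within the shared slide the medians were 0.42 and 0.74, and with spike-in scaling they were -0.24 and -0.34.

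Untreated Huh7 and Huh1 cells differed in single genes more than as a group. The median difference, Huh7 minus Huh1, was -0.05, with 18 genes higher and 27 lower, where 34.6% and 36.3% of all probes were called. RPL29 gave 6.45, 6.40 and 6.43 in Huh7 and 7.27, 7.24 and 7.19 in Huh1, a difference of -0.81 ± 0.05 (adjusted p = 3.08e-09). RPL27A (-1.53), RPL10L (-0.80), RPS20 (-0.63) and RPL36 (-0.62) were also lower in Huh7. RPS6, the substrate of the S6 kinases, was higher by 0.50, as were RPL3L (0.50), RPL34 (0.45) and RPS27L (0.41). The control arrays of the lines lay on different slides, and apart from 1 DSF array that bridges them, line and slide cannot be told apart.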

How the data were processed

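EpCAM+ cells of 6 groups, 3 samples each, were hybridized singly to 18 one-color arrays and described in the study as independent experiments. The authors deposited linear spot intensity from Agilent Feature Extraction 10.7.1.1 per the file headers, background-subtracted but without scaling across arrays. A further deposited table gives each value as a ratio to its array's 75th percentile, within 0.05 log2 of a constant from the spot files for 100% of probes.

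Here log2 signals of unflagged spots were averaged per probe and each array's 75th percentile was subtracted. Probes that every one of the 3 arrays of some group flagged as well above background (29760 of 42327) entered a single limma fit. Genes were named through RefSeq accessions and read from the brightest probe. The script was tested on simulated data. Tools were R 4.3.3, limma 3.58.1, Python 3.11.15, pandas 2.3.3, numpy 2.4.6 and matplotlib 3.10.9. Precision is limited by 3 arrays per group. The p-values and SE rest on the spread between arrays of a group, estimated over all 6 groups together.

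The member genes and gene lists were chosen with earlier results of these data known. Named genes are, per comparison, the 5 largest called rises and falls, the 5 lowest p for a line difference per drug, genes called with opposite signs between lines or between probes, and the stalk, paralog and MDM2 lists. Values of some genes that this rule names are not reported here, though the counts and medians include them. Alternatives were median, quantile and spike-in scaling, normexp (offset 50, on median signals, since the files hold no mean signal), other filters, the mean of a gene's probes, the deposited table, a fit per line, slide and replicate blocks, single slides and leaving out each array. Same-numbered arrays did not deviate together (0 of 18 pairs correlated above 0.1), so numbers were not taken as pairs.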

Additional observations from a re-analysis of the deposited data

Results flagged for a closer look

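Responses of 8 ribosomal protein genes, among those with the lowest p for each drug, differed between the lines by the test of the difference itself (the response in Huh7 minus that in Huh1). With 5-FU the difference was -0.761 for RPL22, -0.617 for RPL12 and -0.481 for RPS9, which fell further in Huh7, and 0.909 for RPS27L, which rose in Huh7 and did not pass in Huh1. With DSF it was -2.63 for RPL3L, which rose in Huh1, and 0.438 for RPS26, 0.361 for RPL23 and 0.26 for RPL6. The Huh7 DSF values of the last 3 genes include the 2 arrays of slide 3, and with slide as a block, which leaves 1 of the Huh7 DSF arrays, the difference of RPL23 no longer passed. With spike-in scaling the 5-FU differences of RPL22 (-0.61, limma adjusted p = 0.0515), RPL12 (-0.46, adjusted p = 0.081) and RPS9 (-0.33, adjusted p = 0.213) no longer passed. Nor did the DSF differences of RPS26 (0.13, adjusted p = 0.612), RPL23 (0.05, adjusted p = 0.862) and RPL6 (-0.051, adjusted p = 0.861). Those of RPS27L with 5-FU and RPL3L with DSF kept their calls. Groups of 3 arrays allow no test for a single array that stands apart.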

How the results depend on the processing

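Scaling mattered most. With spike-in scaling the medians were 0.34 (Huh1) and 0.23 (Huh7) for 5-FU, 0.0912 and -0.11 for DSF, -0.24 and -0.34 for DSF against 5-FU, -0.21 and -0.0862 for the line difference with DSF and with 5-FU, and 0.0207 between control lines. The calls higher and lower were then 56 and 1 (Huh1) and 34 and 4 (Huh7) for 5-FU, 2 and 24 and 3 and 50 for DSF against 5-FU, and 11 and 10 between control lines. With DSF 0 were lower in Huh1, 0 were higher and 1 lower in Huh7, and for the line differences 0 were higher with DSF and 1 was lower with 5-FU. With quantile normalization the medians were -0.0806 and -0.23 for 5-FU, -0.0302 for DSF in Huh7, 0.10 and 0.18 for DSF against 5-FU, -0.0559 and -0.12 for the line differences and 0.0625 between control lines. The calls were 4 higher and 27 lower and 5 and 50 for 5-FU, 4 higher (Huh1) and 7 higher and 12 lower (Huh7) for DSF, 26 and 4 and 46 and 8 for DSF against 5-FU, 4 and 3 for the line difference with DSF, 23 lower for that with 5-FU, and 32 higher between control lines. With median scaling the medians were -0.22 for DSF in Huh1 (50 lower), 0.30 and 0.77 for DSF against 5-FU (2 lower in Huh1), 0.25 and -0.19 for the line differences (34 higher and 20 lower) and -0.21 between control lines (6 higher, 43 lower), and 1 gene was lower with DSF in Huh7.

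Single genes turned with the scale. With spike-in scaling 5-FU gave in Huh1 RPL10 (0.41), RPL10L (0.48), RPL11 (0.41), RPL12 (0.0607), RPL22 (0.17), RPL23 (0.20), RPL26 (0.37), RPL34 (0.0241), RPL36A (0.31), RPL36AL (0.40), RPL37 (0.0507), RPL39 (0.41), RPL5 (0.37), RPL7 (0.30), RPLP0 (0.43), RPLP1 (0.33), RPLP2 (0.35), RPS14 (0.24), RPS25 (0.32), RPS27 (0.39), RPS27A (0.56), RPS3 (0.37) and RPS7 (0.39). In Huh7 it gave RPL10 (0.21), RPL10L (0.16), RPL11 (0.28), RPL23 (0.16), RPL26 (0.24), RPL36A (0.25), RPL36AL (0.47), RPL39 (0.28), RPL3L (0.47), RPL5 (0.27), RPLP0 (0.36), RPLP1 (0.46), RPLP2 (0.16), RPS14 (0.16), RPS25 (0.19), RPS27 (0.36), RPS27A (0.51), RPS3 (0.0949) and RPS7 (0.34). The line difference with DSF was -0.051 for RPL6. With quantile normalization 5-FU gave in Huh1 RPL10 (0.0151), RPL11 (0.0137), RPLP0 (0.0476), RPS27 (0.0374) and RPS27A (0.098), and in Huh7 RPLP1 (0.0327) and RPS27A (0.004).

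With slide as a block, which leaves 1 DSF array in Huh7, DSF gave a median of 0.0043 in Huh7 with 0 genes higher and 1 lower, 10 lower in Huh1, and -0.0397 for RPLP1 in Huh7. DSF against 5-FU in Huh7 was 0.74, the line difference with DSF had 2 higher and 2 lower, and control lines differed by -0.14 (6 higher). Within slide 2 the Huh7 DSF median was 0.0043 (0 higher, 0 lower), RPLP1 -0.0397 and DSF against 5-FU 0.74, and within slide 1 1 gene was higher with DSF. The mean of a gene's probes gave 9 lower (Huh1) and 7 lower (Huh7) with DSF, 1 higher with 5-FU in Huh1 and 2 lower for the line difference with DSF. No filter gave 7 higher and 2 lower with DSF in Huh7 and 4 higher for the line difference, the stricter filter 9 lower with DSF in Huh1, normexp 1 higher with 5-FU in Huh1, and a fit per line 4 higher and 2 lower with DSF in Huh7. The replicate numbers did not pair the arrays. With the replicate block 5-FU kept medians of -0.48 and -0.75, DSF in Huh7 had 7 higher and 2 lower, the line difference with DSF 4 higher, and control lines 9 higher.

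Leaving out 1 array gave 0 to 1 higher with 5-FU in Huh1, a 5-FU median of -0.78 to -0.70 in Huh7, 2 to 8 lower with DSF in Huh1, 3 to 27 higher and 1 to 5 lower with DSF in Huh7, and 3 to 21 higher for the line difference with DSF. The 27 came without the Huh7 DSF array of slide 2, and without either slide 3 array 3 were higher. The cause of these shifts was not tested. The number of arrays limits all small changes, and relative scales do not give amounts per cell.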
